A study of Mus musculus with 23 samples.

Results

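The Fc receptors on the panel were Fcer1g, Fcgr1, Fcgr2b and Fcgr3. These 4 genes, taken by name, were all the members among the 770 genes that the nCounter Mouse Neuroinflammation panel counts in bulk RNA of mouse brain cortex. The study asked whether doxycycline (dox), an antibiotic used to switch transgenes off, alters the later response of the brain to lipopolysaccharide (LPS), a component of the bacterial outer membrane. In this assay a coloured barcode hybridized to each transcript is counted directly, with no amplification. All 23 mice were WT animals of strain B6FVB, bred from the CamKIIα-TTA/tetO-APP102 x FVB line and carrying none of its transgenes, and all were 12 wk old.

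The 6 Dox+LPS mice were given dox chow (100 mg/kg) between postnatal day 3 and 6 wk of age, went without it for 6 wk, and received a single intraperitoneal injection of LPS (2 mg/kg) 18 h before harvest. The 5 LPS mice had the same injection and had never been given dox. The 4 Dox mice had the same chow and washout as the Dox+LPS mice and were injected with saline. The 8 Untreated mice never had dox and were injected with saline. By the study's methods, the LPS-injected mice had also been sampled for stool and the saline-injected mice had not. Each replicate was a separate mouse.

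Fc receptors bind the constant part of antibodies and couple bound antibody to the cell that carries the receptor. Activating receptors signal through an ITAM, a tyrosine motif that recruits the kinase Syk, and the inhibitory receptor carries an ITIM, which recruits phosphatases that dampen the signal. In brain, these receptors are known from microglia and from the macrophages at its borders and vessels, where they serve the uptake of antibody-coated material and immune complexes.

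By role, Fcgr1 encodes the high-affinity activating receptor FcγRI (CD64) and Fcgr3 the low-affinity activating receptor FcγRIII (CD16). Fcgr2b encodes FcγRIIB (CD32B), the inhibitory receptor. Fcer1g encodes the common gamma chain, the ITAM adaptor that the activating receptors need for signalling and for their place on the cell surface. In the mouse genome (RefSeq, GRCm38.p6) Fcgr2b, Fcgr3 and Fcer1g lie on chromosome 1, within a stretch of 11 coding genes of which these 3 are on the panel. Fcgr4, another activating receptor gene, stands between Fcgr2b and Fcgr3 and has no probe on the panel. Fcgr1 lies apart on chromosome 3. Fcgr2b and Fcgr3 share closely similar extracellular parts, and whether their probes hybridize to both transcripts was not tested.

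The 4 genes rose together after LPS, so the promoters of all 4 are shown, each as 250 bases before and 50 bases after the RefSeq start site. The windows are chr3:96293920-96294219 for Fcgr1, chr1:171059354-171059653 for Fcgr3, chr1:170976022-170976321 for Fcgr2b and chr1:171234300-171234599 for Fcer1g, all on the minus strand and written 5′ to 3′ along the gene. RefSeq lists 2 promoters for Fcgr3, of which the first is shown and the other was not searched, and 1 for each other gene. Capitals mark matches to the motifs searched.
Fcgr1: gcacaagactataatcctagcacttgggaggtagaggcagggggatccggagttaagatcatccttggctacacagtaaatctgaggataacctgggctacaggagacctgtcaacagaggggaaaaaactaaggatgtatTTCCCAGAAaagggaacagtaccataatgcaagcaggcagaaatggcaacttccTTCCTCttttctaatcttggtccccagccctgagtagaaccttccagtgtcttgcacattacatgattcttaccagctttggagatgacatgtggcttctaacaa
Fcgr3: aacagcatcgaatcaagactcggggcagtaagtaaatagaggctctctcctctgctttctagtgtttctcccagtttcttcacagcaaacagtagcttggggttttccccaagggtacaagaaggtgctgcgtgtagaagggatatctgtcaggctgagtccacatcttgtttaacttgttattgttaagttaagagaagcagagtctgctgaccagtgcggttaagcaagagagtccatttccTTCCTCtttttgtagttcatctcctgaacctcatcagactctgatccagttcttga
Fcgr2b: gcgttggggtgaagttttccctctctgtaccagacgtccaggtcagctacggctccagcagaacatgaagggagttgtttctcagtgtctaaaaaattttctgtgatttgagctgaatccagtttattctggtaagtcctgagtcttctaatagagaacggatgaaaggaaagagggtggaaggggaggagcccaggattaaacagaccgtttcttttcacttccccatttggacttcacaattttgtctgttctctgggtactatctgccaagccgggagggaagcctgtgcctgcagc
Fcer1g: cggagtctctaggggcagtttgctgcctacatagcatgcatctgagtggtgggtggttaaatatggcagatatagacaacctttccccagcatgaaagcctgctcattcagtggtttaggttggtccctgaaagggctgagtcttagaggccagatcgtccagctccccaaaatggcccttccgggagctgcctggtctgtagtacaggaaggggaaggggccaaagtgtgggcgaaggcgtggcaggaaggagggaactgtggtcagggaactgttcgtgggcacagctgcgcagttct

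The motifs were the interferon-gamma activated site (GAS, TTCNNNGAA), the interferon-stimulated response element (ISRE) and the core of the site of PU.1, a transcription factor of myeloid cells (GAGGAA), each searched on both strands and none overlapping another here. The Fcgr1 window held the GAS match TTCCCAGAA 109 to 101 bases before the start site, and a PU.1 core on the reverse strand (TTCCTC) 55 to 50 bases before it. The Fcgr3 window held the same 6 letters, TTCCTC, directly before the start site shown. The Fcgr2b and Fcer1g windows held no match to these letters. Of 27025 mouse promoters of this length, 8.47% held the GAS letters, 3.49% the ISRE and 28.3% the PU.1 core, and a match describes the sequence and not a bound site.

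Counts over the panel ranged from 645971 to 804471 per mouse, with no group apart in depth. The background, 2 SD over the mean of the 8 negative control probes, was 15.4 to 29.8 counts per mouse, and all 4 Fc receptor transcripts stood above it in all 23 mice, by at least 2.15-fold. Cartridge 1 held the LPS-injected mice and cartridge 2 those given saline. The effects of LPS and of the cartridge therefore cannot be told apart. On both cartridges the mice given dox took the later lanes. Normalized counts are counts scaled by the upper quartile of each mouse, and they compare mice for 1 gene but not 1 gene with another, because probes differ in efficiency. A gene counted as called when edgeR's quasi-likelihood test over all 770 genes gave an adjusted p (Benjamini-Hochberg) under 0.05 for it and its log2 fold change lay beyond 0.5 either way.

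After LPS all 4 Fc receptor transcripts were higher, in mice with prior dox and in mice without. The gamma chain Fcer1g and the high-affinity receptor Fcgr1 stood at 2.30 to 2.86 times the saline level, and the low-affinity receptor Fcgr3 and the inhibitory receptor Fcgr2b at 1.53 to 1.97 times. All 4 were called higher in LPS against Untreated, where 16.8% of the panel was called higher, and all 4 in Dox+LPS against Dox, where 19.5% was. The median log2 fold change of the 4 genes was 1.01 and 1.20, beside -0.04 and -0.07 over the panel.

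Fcgr1, the high-affinity receptor, had a lowest, median and highest normalized count of 158, 244 and 294 in the Dox+LPS mice. The 5 LPS mice had 194, 258, 169, 267 and 196. The 4 Dox mice had 78.0, 113, 85.4 and 62.9. In the 8 Untreated mice the lowest, median and highest were 70.1, 88.4 and 133, so the LPS-injected mice did not overlap the saline-injected mice. The lowest of the LPS-injected mice was Dox+LPS replicate 1, and the highest of the saline-injected mice was Untreated replicate 3. Fcgr1 rose by a log2 fold change of 1.20 (SE 0.16, 95% interval 0.87 to 1.54, adjusted p = 9.5e-07) in LPS against Untreated mice. In Dox+LPS against Dox mice it rose by 1.52 (SE 0.19, 95% interval 1.12 to 1.92, adjusted p = 5.4e-07), the largest of the 8 member changes by LPS.

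Fcgr3, the low-affinity activating receptor, had a lowest, median and highest normalized count of 101, 118 and 140 in the Dox+LPS mice. The LPS mice had 109, 94.97, 121, 118 and 130, and these groups overlapped each other. The Dox mice had 73.4, 61.8, 53.5 and 55.4. In the Untreated mice the lowest, median and highest were 46.6, 56.6 and 114. The highest value belonged to Untreated replicate 3, which lay above 2 of the 5 LPS mice. Every other saline-injected mouse lay below every LPS-injected one. The log2 fold change was 0.81 in LPS against Untreated (SE 0.16, 95% interval 0.49 to 1.14, adjusted p = 0.00014) and 0.98 without Untreated replicate 3. In Dox+LPS against Dox it was 0.98 (SE 0.19, 95% interval 0.59 to 1.36, adjusted p = 0.00011). Among males alone, with a single Dox mouse, that comparison gave 1.14 with an adjusted p = 0.052 from the same test.

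Fcgr2b, the inhibitory receptor, had a lowest, median and highest normalized count of 188, 236 and 295 in the Dox+LPS mice. The LPS mice had 181, 275, 162, 204 and 163, and 3 of the 5 lay below the lowest Dox+LPS mouse. The Dox mice had 139, 146, 102 and 122. In the Untreated mice the lowest, median and highest were 111, 127 and 156. No LPS-injected mouse lay below a saline-injected one, but the gap was narrow, between LPS replicate 3 at 162 and Untreated replicate 3 at 156. Fcgr2b rose by a log2 fold change of 0.62 (SE 0.13, 95% interval 0.34 to 0.89, adjusted p = 0.00046) in LPS against Untreated mice. Without LPS replicate 2, the highest LPS mouse, that value was 0.46 and passed the adjusted p but not the fold threshold. In Dox+LPS against Dox mice it rose by 0.90 (SE 0.16, 95% interval 0.57 to 1.22, adjusted p = 3.4e-05).

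Fcer1g, the gamma chain, had a lowest, median and highest normalized count of 266, 289 and 346 in the Dox+LPS mice. The LPS mice had 261, 344, 214, 259 and 254, most of them below the lowest Dox+LPS mouse. The Dox mice had 114, 133, 96.8 and 103. In the Untreated mice the lowest, median and highest were 91.4, 103 and 158. No LPS-injected mouse overlapped a saline-injected one, and 7 of the 8 Untreated mice lay close together under the eighth, replicate 3. Fcer1g rose by a log2 fold change of 1.29 (SE 0.12, 95% interval 1.05 to 1.53, adjusted p = 2.6e-09) in LPS against Untreated mice and by 1.41 (SE 0.14, 95% interval 1.12 to 1.70, adjusted p = 1.0e-08) in Dox+LPS against Dox mice.

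**Figure D1:**
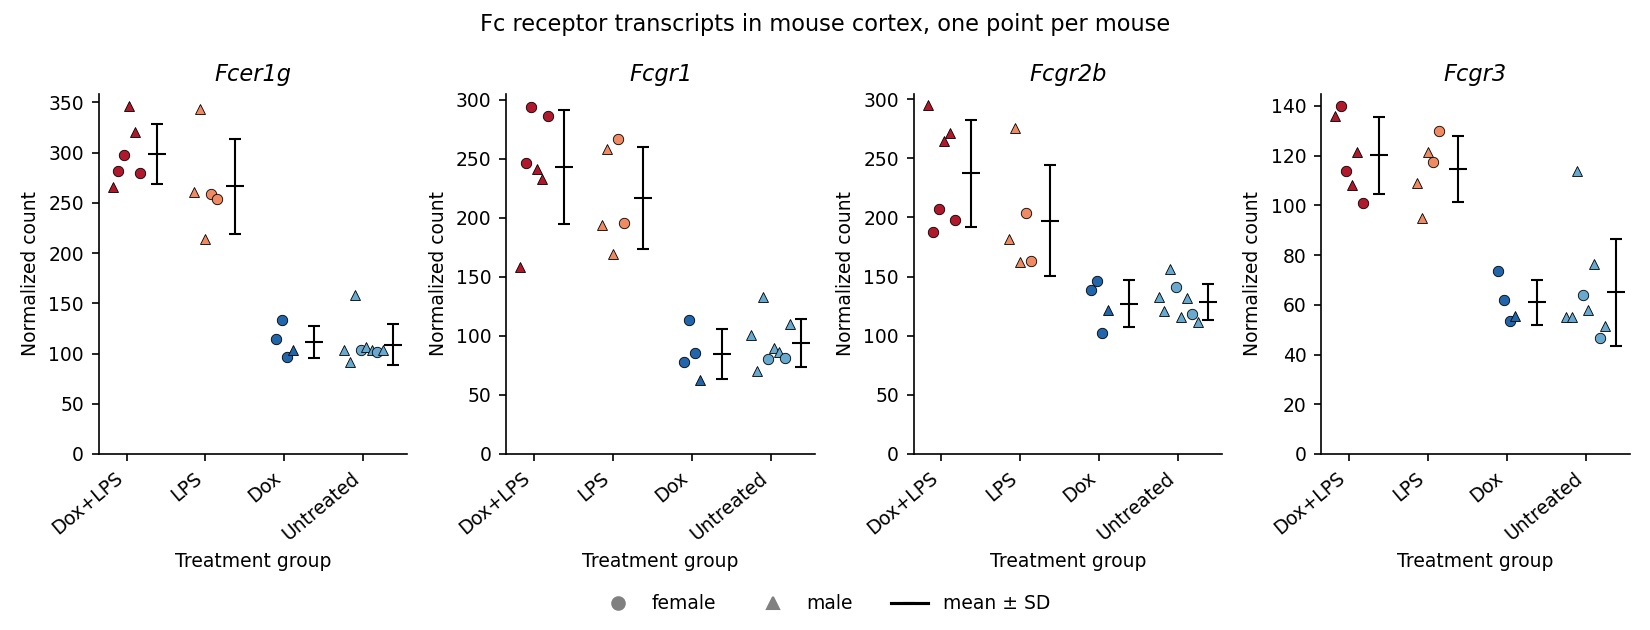
Normalized counts (vertical axes, linear) of the 4 Fc receptor transcripts in each mouse, by group, with circles for females, triangles for males and bars for the mean ± SD (n = 6, 5, 4 and 8). LPS-injected mice stood above saline-injected mice for every gene, apart from Untreated replicate 3, whose Fcgr3 count of 114 lay among theirs.

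Counted by overlap, 3 of the 4 genes (all but Fcgr3) had every LPS mouse above every Untreated mouse, as did 13.6% of the panel. All 4 had every Dox+LPS mouse above every Dox mouse, as did 18.6% of the panel. As a point value, the spread within groups was above counting error for every gene in every group, and the excess was not tested. For Fcer1g in LPS mice, 266 ± 47.2 (SD, n = 5), the coefficient of variation was 17.7%, against 6.03% from counting alone. For Fcgr3 in Dox mice, 61.1 ± 8.99 (SD, n = 4), it was 14.7%, against 13.3% from counting alone.

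Prior dox was followed by no called change in any of the 4 genes. In Dox against Untreated mice the log2 fold changes were 0.04 for Fcer1g, -0.15 for Fcgr1, -0.02 for Fcgr2b and -0.10 for Fcgr3, with adjusted p between 0.980 and 0.984. The widest 95% interval, that of Fcgr1, ran from -0.53 to 0.24, and the narrowest, that of Fcer1g, from -0.24 to 0.31. Sex was uneven here, with 3 females and 1 male in the Dox group and 2 females and 6 males in the Untreated group. The Fcgr1 value was 0.19 in females only and -0.65 in males only. No gene of the panel (0%) was called by edgeR's test in this comparison, 41 genes had an unadjusted p under 0.05, and DESeq2 and limma-voom also called 0.

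After LPS, the Dox+LPS mice had higher means than the LPS mice for all 4 genes, the groups overlapped for each gene, and none of the differences was called. Fcgr2b averaged 237 ± 45.0 in Dox+LPS mice and 197 ± 46.9 in LPS mice (SD, n = 6 and 5). Its log2 fold change was 0.26 (95% interval -0.03 to 0.55, adjusted p = 0.43), 0.42 without LPS replicate 2 and 0.19 without Dox+LPS replicate 1. Those of Fcgr1, Fcer1g and Fcgr3 were 0.17, 0.16 and 0.07, with 95% intervals of -0.18 to 0.51, -0.09 to 0.41 and -0.27 to 0.41. With each mouse left out in turn, they ran from 0.09 (without LPS replicate 3) to 0.26 (without Dox+LPS replicate 1) for Fcgr1, from 0.09 (without LPS replicate 3) to 0.27 (without LPS replicate 2) for Fcer1g, and from 0.006 (without LPS replicate 2) to 0.12 (without LPS replicate 5) for Fcgr3. The order of the 4 genes in this comparison therefore changes with single mice. Again 0% of the panel was called by edgeR's test, with 102 genes at an unadjusted p under 0.05, 2 genes called by DESeq2 and 0 by limma-voom.

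The interaction of LPS and dox, the LPS effect with prior dox minus the LPS effect without it, was positive for all 4 genes and called for none. It was 0.31 for Fcgr1 (95% interval -0.20 to 0.83, adjusted p = 0.72), 0.28 for Fcgr2b (-0.14 to 0.71, adjusted p = 0.72), 0.16 for Fcgr3 (-0.34 to 0.67) and 0.12 for Fcer1g (-0.25 to 0.50). The intervals for Fcgr1, Fcgr2b and Fcgr3 contain differences beyond 0.5 on the log2 scale, so these group sizes do not show that the responses were alike. Of the panel, 0% was called, with 69 genes at an unadjusted p under 0.05.

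**Figure D2:**
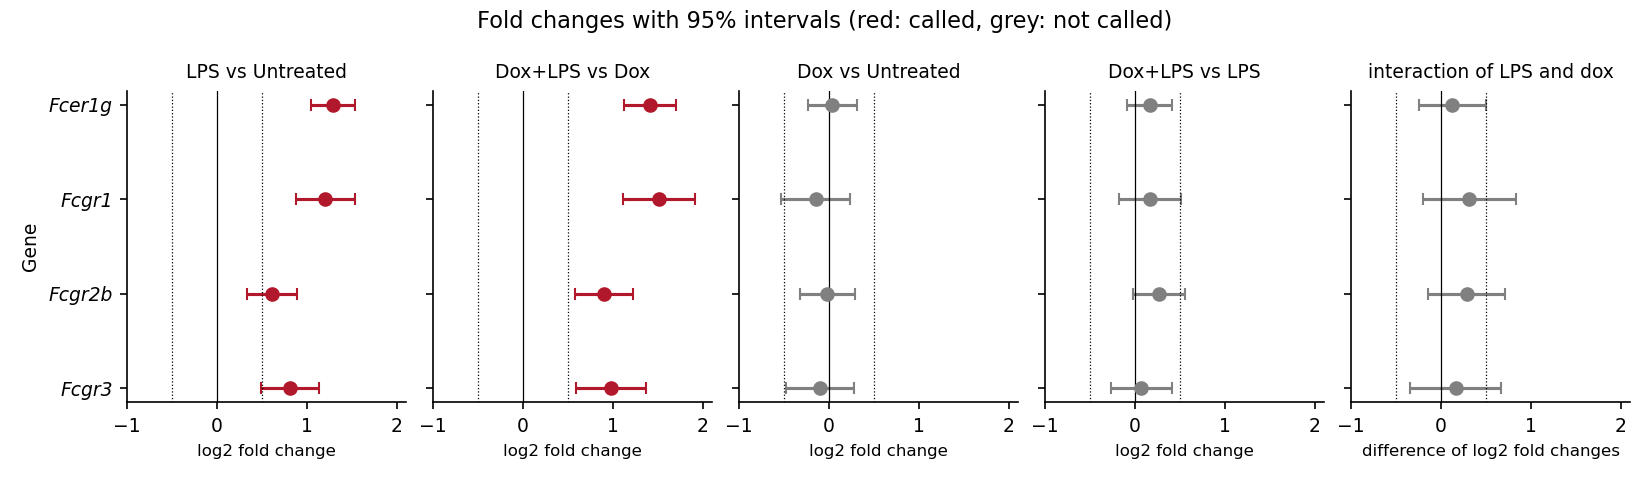
Log2 fold change with its 95% interval (horizontal axes) for each Fc receptor gene in the 4 comparisons, and the interaction as a difference of log2 fold changes, with dotted lines at -0.5 and 0.5. The 8 LPS estimates lie between 0.62 and 1.52 with intervals above 0, and the intervals of the dox comparisons and of the interaction cross 0.

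Because each mouse gives all 4 counts, the balance between activating and inhibitory transcripts was compared as a log2 ratio of counts within each mouse, which needs no scaling. The gamma chain and the high-affinity receptor increased relative to the inhibitory receptor after LPS in mice without dox. The Fcer1g to Fcgr2b log2 ratio was 0.53, 0.32, 0.40, 0.35 and 0.64 in the LPS mice. In the Untreated mice the highest was 0.02 and the lowest -0.45, so the groups did not overlap. The ratio averaged 0.45 ± 0.13 in LPS mice and -0.25 ± 0.17 in Untreated mice (SD, n = 5 and 8). The difference of 0.70 (SE 0.084) had an exact permutation p = 0.00155, two-sided, the smallest that these group sizes can give, and 0.0373 after adjustment over 24 ratio comparisons.

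The Fcgr1 to Fcgr2b log2 ratio averaged 0.14 ± 0.19 in LPS mice and -0.47 ± 0.27 in Untreated mice (SD, n = 5 and 8). The difference was 0.61 (SE 0.13, exact permutation p = 0.00311, adjusted 0.0373), with an overlap between LPS replicate 2 at -0.09 and Untreated replicate 8 at -0.01. For Fcgr3, the low-affinity receptor, the difference was 0.27 (SE 0.24, exact permutation p = 0.222) and did not pass. Over 15 alternatives it ran from 0.16 to 0.46, with an unadjusted exact permutation p of up to 0.465. The highest value, 0.46, was the one without LPS replicate 2 (exact permutation p = 0.0242, unadjusted).

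With prior dox no difference in the ratios to Fcgr2b passed the adjustment. With 6 and 4 mice the smallest exact permutation p possible was 0.00952, against 0.00155 in LPS against Untreated. Failing the adjustment here therefore does not show a contrast with the mice without dox. The Fcer1g to Fcgr2b log2 ratio averaged 0.35 ± 0.27 in Dox+LPS mice and -0.18 ± 0.095 in Dox mice (SD, n = 6 and 4), a difference of 0.53 (SE 0.12, exact permutation p = 0.0286, adjusted 0.183). The Fcgr1 to Fcgr2b log2 ratio averaged 0.03 ± 0.56 and -0.60 ± 0.34 in the same groups, a difference of 0.63 (SE 0.28, exact permutation p = 0.0667, adjusted 0.261). Dox+LPS replicate 1, with the lowest Fcgr1 and the highest Fcgr2b count of the group, lay apart at a log2 ratio of -0.90. Without that mouse the difference was 0.82 (exact permutation p = 0.0159, unadjusted), the highest of 11 alternatives. The lowest was 0.51, and the unadjusted exact permutation p was up to 0.167. For the Fcgr3 to Fcgr2b log2 ratio the difference was 0.085 (SE 0.15, exact permutation p = 0.705). Compared directly, Dox+LPS minus LPS, the Fcer1g, Fcgr1 and Fcgr3 log2 ratios to Fcgr2b differed by -0.10, -0.12 and -0.21. Their exact permutation p values were 0.541, 0.723 and 0.394. Besides the Fcer1g and Fcgr1 ratios in LPS against Untreated, no ratio comparison had an adjusted p under 0.183.

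**Figure D3:**
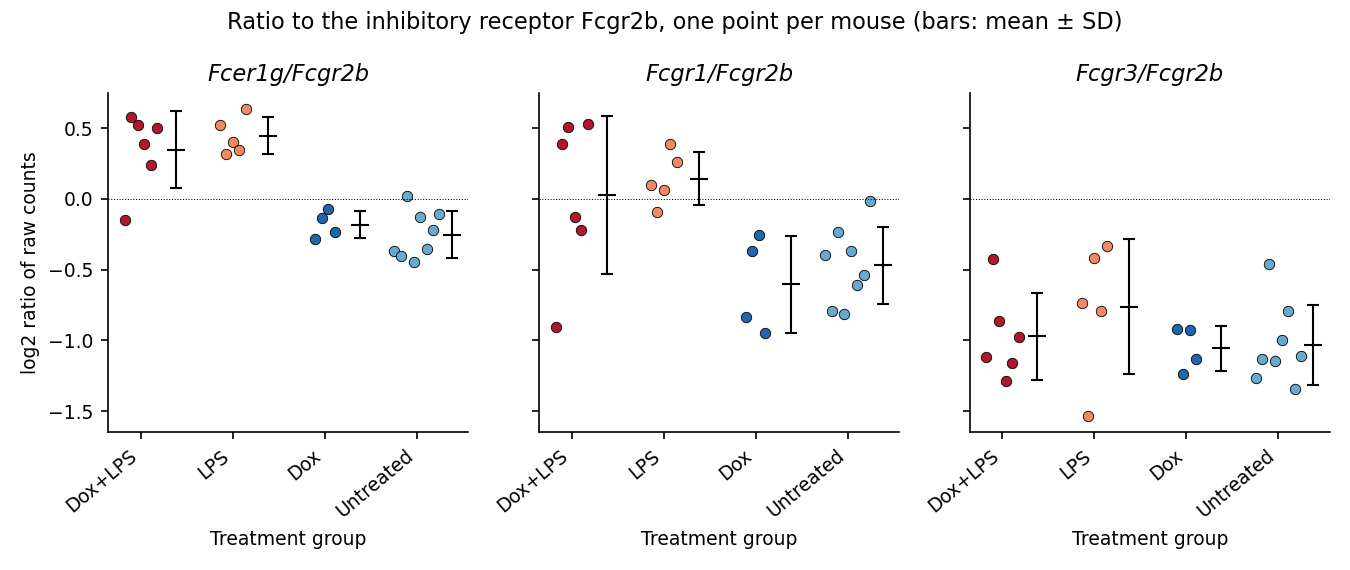
Log2 ratio of the raw counts of Fcer1g, Fcgr1 and Fcgr3 to that of the inhibitory receptor Fcgr2b (vertical axis) in each mouse, by group, with bars for the mean ± SD. The Fcer1g ratio averaged 0.45 in LPS mice and -0.25 in Untreated mice, and 1 Dox+LPS mouse lies at -0.90 for the Fcgr1 ratio.

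Sex was balanced in the Dox+LPS group only, with 3 females and 3 males. There were 2 females and 3 males in the LPS group, 3 and 1 in the Dox group, and 2 and 6 in the Untreated group. In the Dox+LPS group Fcgr1 ran from 247 to 294 in females and from 158 to 242 in males. Fcgr2b ran the other way there, from 188 to 207 in females and from 264 to 295 in males. Both were singled out after their values were seen. Such a separation of the sexes in the Dox+LPS group, in either direction, was found for 20.4% of the panel. Over all mice with group as a covariate, no Fc receptor differed by sex in edgeR's test. The log2 difference, female minus male, was 0.17 for Fcgr1 (SE 0.13, adjusted p = 0.79) and -0.19 for Fcgr2b (SE 0.10, adjusted p = 0.73), beside 0.260% of the panel called.

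Within each condition the mice varied together for some pairs of genes and not for others. Each condition pools the mice with and without prior dox. In the 11 LPS-injected mice, log2 values of Fcer1g and Fcgr2b had a Pearson r of 0.73 (permutation p = 0.0103, adjusted over 12 pairs 0.0293) and a Spearman rho of 0.70 (permutation p = 0.0202, adjusted 0.0657), and r was 0.61 without the 2 farthest mice. Fcgr1 and Fcgr2b had an r of 0.08 there (permutation p = 0.810). Fcgr3 had negative values with the other 3 genes, an r of -0.50 to Fcgr1, -0.45 to Fcer1g and -0.19 to Fcgr2b, none passing (permutation p of 0.119 to 0.576). As deviations from the group means, r was 0.66 for Fcer1g and Fcgr2b and -0.05 for Fcgr1 and Fcgr2b. For Fcgr3 it was then -0.59 to Fcgr1, -0.61 to Fcer1g and -0.32 to Fcgr2b. These values of r were not tested.

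In the 12 saline-injected mice, Fcgr2b and Fcgr3 had an r of 0.74 (permutation p = 0.0037, adjusted 0.0222), which was 0.66 without the 2 farthest mice. Fcer1g had an r of 0.77 to Fcgr3, 0.74 to Fcgr2b and 0.72 to Fcgr1 (adjusted permutation p of 0.0293, 0.0222 and 0.0274). Without Dox replicate 2 and Untreated replicate 3 these became 0.48, 0.48 and 0.17, so all 3 rest to a large part on those mice. Without Untreated replicate 3 alone, r between Fcer1g and Fcgr3 was 0.37. No Spearman rho of the 12 pairs had an adjusted p under 0.0657. All values within a mouse share its RNA, hybridization and scaling.

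**Figure D4:**
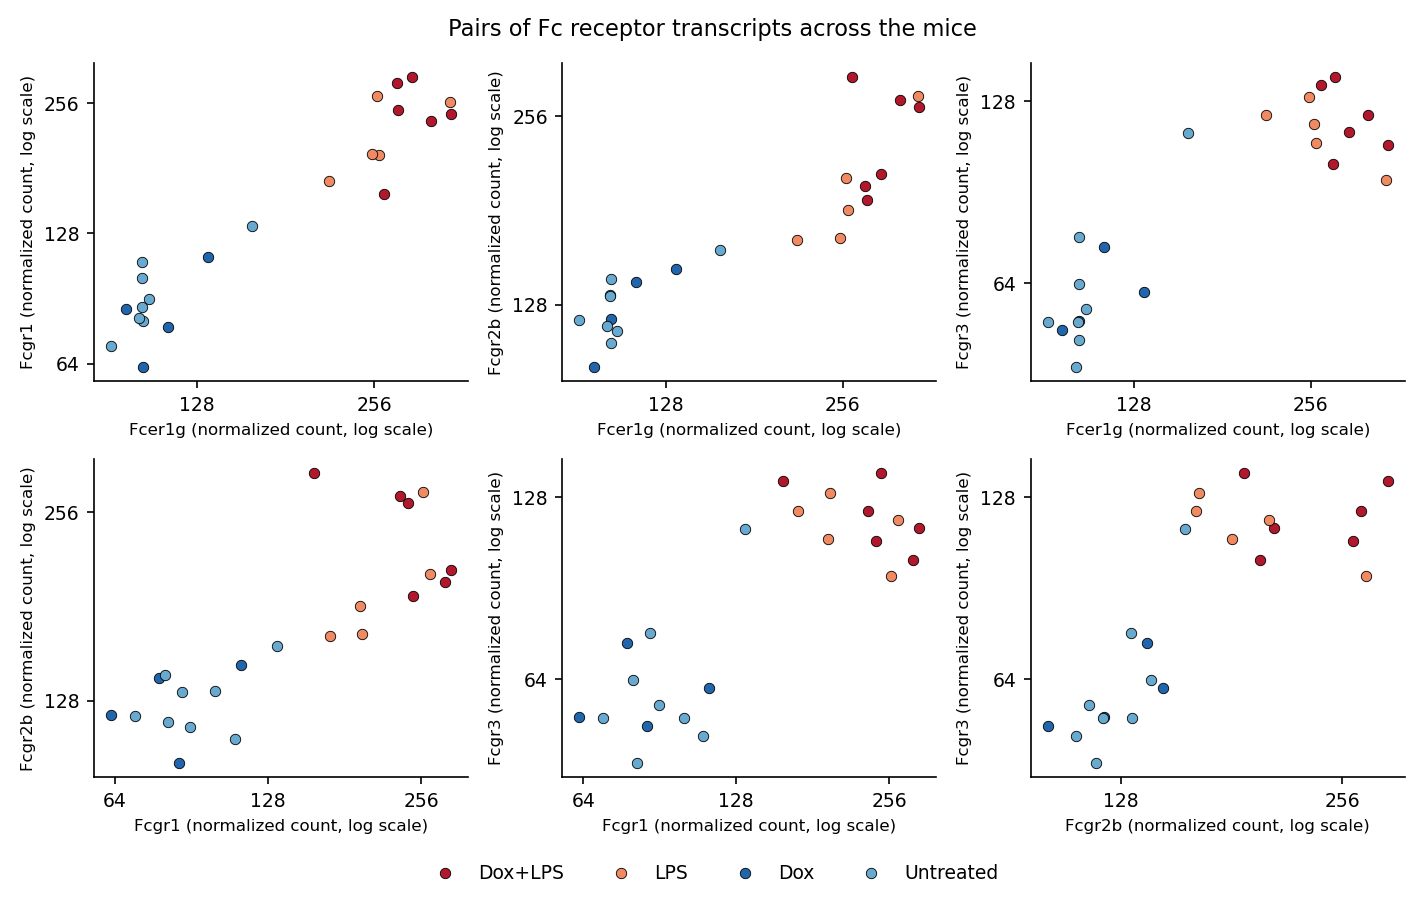
Normalized counts of each pair of Fc receptor genes (both axes on a log scale), 1 point per mouse, coloured by group. The LPS-injected mice lie up and to the right of the saline-injected mice, apart from Untreated replicate 3 for Fcgr3. Fcer1g and Fcgr2b rise together within them (r of 0.73).

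Over the whole panel, the genes that varied most like each member were ranked by the Pearson r of deviations from group means over the 23 mice, given as a description. For Fcgr1 they were Ifi30 (0.78), a lysosomal thiol reductase of antigen processing, Il2rg (0.76), the common cytokine receptor gamma chain, and C1qa (0.70), a chain of complement C1q. For Fcgr2b they were Was (0.71), an actin regulator of blood cells, the gamma chain Fcer1g (0.67) and Mbd2 (0.67), which binds methylated DNA. For Fcer1g they were Pros1 (0.81), a ligand for receptors that clear apoptotic cells, the transglutaminase Tgm2 (0.80) and the intermediate filament gene Vim (0.76). For Fcgr3 they were Lag3 (0.71), Il1a (0.61) and Lrg1 (0.60). The Lag3 value was 0.94 among saline-injected and 0.02 among LPS-injected mice, that of Lrg1 0.76 and -0.10, and that of Il1a 0.66 and 0.44. Il1a and Lrg1 stood above background in only 15 and 17 of the 23 mice. Ranked by Spearman's rho, 1 of the 3 genes named for each stayed among the first 3 for Fcer1g, Fcgr2b and Fcgr3, and 2 did for Fcgr1.

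Genes that act directly under the receptors moved partly with them. Of 13 kinases, phosphatases and adaptors close to the receptor, 8 are on the panel, and 5 of the 8 were called higher in LPS against Untreated (16.8% of the panel) and 4 in Dox+LPS against Dox (19.5% of the panel), with median log2 fold changes of 0.58 and 0.48. The phosphatase Ptpn6 (SHP-1), which docks on ITIMs, rose by 1.13 in Dox+LPS against Dox mice and 1.03 in LPS against Untreated mice. The Src-family kinase Lyn, which phosphorylates both motifs, rose by 0.71 and 0.67 in the same comparisons, and the phosphatase Ptprc (CD45) by 0.68 and 0.77. Tyrobp (DAP12), another ITAM adaptor of myeloid cells, rose by 0.60 and 0.57, beside 1.41 and 1.29 for the gamma chain.

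The kinase Btk was called only in LPS against Untreated (0.59) and had 0.25 in Dox+LPS against Dox. Syk, the kinase that ITAMs recruit, had log2 fold changes of 0.36 and 0.23, and Inpp5d (SHIP1), the phosphatase through which the inhibitory receptor acts, 0.10 and 0.28, and neither was called. The Src-family kinase Fyn had -0.27 and -0.24, under the fold threshold.

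Of 25 genes of second messengers and further adaptors, 19 are on the panel. In LPS against Untreated 2 were called higher and 1 lower, and in Dox+LPS against Dox 3 higher and 2 lower. These counts are near the panel shares, of which 16.8% and 19.5% were called higher and 5.97% and 7.01% lower in the same comparisons. The exchange factor Vav1 rose by 0.82 in Dox+LPS against Dox mice and 0.74 in LPS against Untreated mice, and the phospholipase Pla2g4a by 0.79 and 0.60. The kinase Akt2 fell, with log2 fold changes of -0.62 and -0.65. Pik3r5, a regulatory subunit of PI3-kinase, was called higher (1.04) and the phospholipase Pla2g5 lower (-0.58) in Dox+LPS against Dox. The list medians of -0.09 and -0.16, in LPS against Untreated and Dox+LPS against Dox, were close to those of the panel.

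Of 21 genes of phagocytosis and the oxidative burst, 11 are on the panel, with median log2 fold changes of 0.21 in Dox+LPS against Dox and 0.03 in LPS against Untreated. Ncf1 (p47phox), an organizer of the NADPH oxidase, rose by 1.61 in Dox+LPS against Dox mice and 1.36 in LPS against Untreated mice, and Itgam (CD11b), part of complement receptor 3, by 0.59 and 0.58. Was was called in Dox+LPS against Dox (0.52) and had 0.36 in LPS against Untreated. The other 8 measured genes, among them the GTPases Rac1, Rac2 and Rhoa, were not called. With 3 of 11 called higher in Dox+LPS against Dox and 2 in LPS against Untreated, the list lay near the panel shares of 19.5% and 16.8%.

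Of 11 other Fc receptor or Fc receptor-like genes, 4 are on the panel, and Fcrla, Fcrlb and Ms4a2 were at or below background in all 23 mice. Fcrls, an Fc receptor-like gene known from resting mouse microglia, ran opposite to the 4 members. It averaged 80.4 ± 12.0 in Dox+LPS mice and 189 ± 21.4 in Dox mice (SD, n = 6 and 4), a log2 fold change of -1.23 (adjusted p = 9.5e-07). It averaged 92.3 ± 32.6 in LPS mice and 179 ± 22.6 in Untreated mice (SD, n = 5 and 8), a log2 fold change of -0.96 (adjusted p = 9.4e-06). Called lower were 7.01% and 5.97% of the panel in these comparisons. None of the genes of the 4 lists was called by dox, in saline-injected or LPS-injected mice, or in the interaction.

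**Figure D5:**
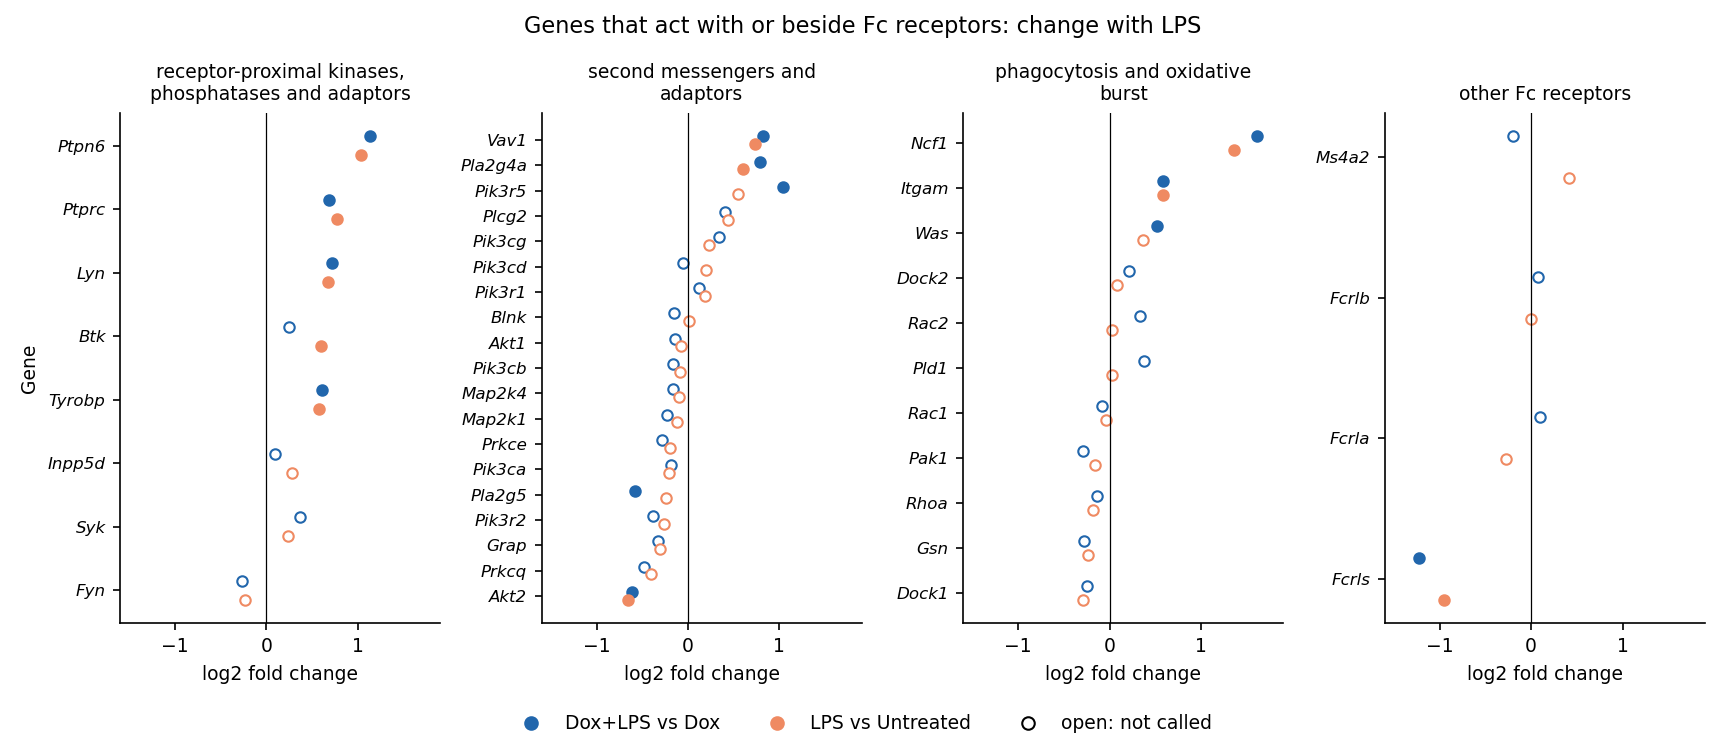
Log2 fold change (horizontal axes) of the panel genes of 4 lists around Fc receptor function in Dox+LPS against Dox and in LPS against Untreated, filled where called and open where not. Ptpn6 and Ncf1 rose most among them, from 1.03 to 1.61, and Fcrls fell in both comparisons.

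Transcripts that mark cell types moved with LPS as well, in bulk tissue where fewer cells of a type and less RNA per cell cannot be told apart. Of 10 microglia markers 8 are on the panel, and their summed normalized counts ran from 1721 to 3230 in Dox+LPS mice and 2560 to 3551 in LPS mice, below the 4206 to 4278 of Dox mice and the 3928 to 4585 of Untreated mice. Of the 8, 5 were called lower in Dox+LPS against Dox (7.01% of the panel) and 4 in LPS against Untreated (5.97% of the panel). P2ry12, a purinergic receptor of resting microglia, averaged 99.9 ± 19.8 in Dox+LPS mice and 585 ± 45.5 in Dox mice (SD, n = 6 and 4). Tmem119, known as a microglia-specific gene, was not called, with log2 fold changes of -0.38 in Dox+LPS against Dox and -0.34 in LPS against Untreated. Sall1 was called in the first (-0.53) and not in the second (-0.27). Cx3cr1 and Csf1r, which microglia share with other myeloid cells, were not called in either. Lower marker counts were not confined to microglia. Of the 6 oligodendrocyte markers on the panel, 4 were called lower and 0 higher in each comparison. Their median log2 fold changes were -0.55 in Dox+LPS against Dox and -0.59 in LPS against Untreated.

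Of 8 perivascular macrophage markers 4 are on the panel. Their sum ran from 175 to 228 in Dox+LPS mice and 132 to 216 in LPS mice, above the 52.2 to 70.1 of Dox mice and the 49.0 to 85.002 of Untreated mice. Cd163, Siglec1 and Ms4a4a were called higher in Dox+LPS against Dox (19.5% of the panel) and in LPS against Untreated (16.8%). Most of the summed rise was Ms4a4a, which averaged 133 in Dox+LPS, 26.4 in Dox, 120 in LPS and 24.4 in Untreated mice. Cd163 averaged 31.4, 18.3, 35.1 and 21.8 in the same groups. Siglec1 stood above background in 8 of 23 mice and in no Dox mouse. Cd209e was at or below background in all mice. Of 10 neutrophil markers 3 are on the panel, with sums of 74.8 to 104 in Dox+LPS mice, 62.9 to 95.9 in LPS mice, 56.5 to 66.7 in Dox mice and 42.0 to 76.4 in Untreated mice. Fpr1, above background in 10 of 23 mice and in no saline-injected mouse, was called higher in both LPS comparisons. Csf3r, above background in 22 mice, was not called, with log2 fold changes of 0.09 in Dox+LPS against Dox and 0.02 in LPS against Untreated, and Ly6g was at or below background in all mice.

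Ccr2, the 1 monocyte marker of 5 on the panel, stood above background in 2 of 23 mice. In all mice, 5 of the 6 B cell markers, all 5 T cell markers, 3 of the 7 NK cell markers and 3 of the 5 mast cell markers on the panel were at or below background. The part of these cell types in the Fc receptor changes was not tested.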

How the data were processed

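Cortical RNA of 23 mice was counted on the nCounter panel, which has 757 endogenous, 13 housekeeping, 6 positive control and 8 negative control probes. The authors deposited the instrument's count table, whose probe values were tested and are whole, though the record names them estimated counts, since decimals occur in header lines above them. It has 1 column of none of these mice, which was not used. The deposited signal values, normalized by upper quartile and RUVg, were not used either. The methods name edgeR 3.38.4 and upper quartile scaling.

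Here counts of the 770 genes, with no filter on low counts, were scaled by upper quartile and fitted with edgeR 4.0.16 (glmQLFit, glmQLFTest) in R 4.3.3, with 1 mean for each of the 4 groups and Benjamini-Hochberg adjustment over all genes. The fit was tested on simulated data. Ratios were tested by exact permutation and correlations of log2(value + 1) by 100000 permutations in SciPy 1.17.1, all two-sided. Correlations were computed within LPS-injected and saline-injected mice. Groups come from the labels, and replicate numbers only name mice. Alternatives were other tests (DESeq2 1.42.0, limma-voom 3.58.1 and the likelihood ratio test), other scaling (by housekeeping genes, positive controls, TMM or RLE, and 1 or 2 RUVg factors), a filter or subtraction by background (filter: above it in 4 mice), adjusted p alone, a sex covariate, separate sexes, and leaving out each mouse. Promoters came from RefSeq (GRCm38.p6), where all 4 genes matched.

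Named genes were the 4 Fc receptors, the 3 genes most like each, and from each list up to 4 genes with the smallest p in LPS against Untreated among those called in the commoner direction, and any called the other way. Further list and marker genes (Btk, Syk, Inpp5d, Fyn, Pik3r5, Pla2g5, Was, Rac1, Rac2, Rhoa, those at background and the cell type markers) were added with their values already known. The members, lists and tests were chosen with earlier results of these data known.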

Additional observations from a re-analysis of the deposited data

Results flagged for a closer look

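Untreated replicate 3 stood far above the other 7 Untreated mice in 2 of the 16 sets of values examined (4 genes in 4 groups), where chance gives about 1 in 20. Its normalized count was 158 for Fcer1g, against 91.4 to 106 in the other 7 mice, and 114 for Fcgr3, against 46.6 to 76.4. Its counts of Fcgr1 (133) and Fcgr2b (156) were also the highest of the Untreated group, without standing as far from the next mouse.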

How the results depend on the processing

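All 8 member changes by LPS stayed positive under all alternatives run, and were called in all but the 3 given next. Fcgr2b in LPS against Untreated was 0.50 on the log2 scale in females only, just under the fold threshold, and 0.46 to 0.68 with each mouse left out, the lowest without LPS replicate 2. Fcgr3 in Dox+LPS against Dox was 1.14 in males only, with an adjusted p = 0.052 from edgeR's test, and males only leaves 1 Dox mouse, assumed to vary like the others. Where no change was called, some signs held under all alternatives. These were Fcer1g, Fcgr1 and Fcgr2b in Dox+LPS against LPS, and the interactions of Fcgr1 and Fcgr2b. The other signs turned under some alternatives. For Dox against Untreated, Fcer1g was -0.040 with housekeeping scaling, -0.10 in males only, -0.0095 without the 3 Untreated mice of another number series, and -0.057 to 0.14 with each mouse left out. Fcgr1 was 0.19 and Fcgr3 0.19 in females only, and in males only, with 1 Dox mouse, -0.65 and -0.31, neither called. Fcgr2b was 0.027 with positive control scaling, 0.075 with sex as a covariate, 0.027 with LPS replicate 3 and Untreated replicate 3 both left out, and -0.093 to 0.074 with each mouse left out. Fcgr3 was 0.068 with both of those mice left out and -0.20 to 0.068 with each. In females only, Fcgr3 was -0.068 for Dox+LPS against LPS and -0.25 for the interaction, and the Fcer1g interaction was -0.00115. With LPS replicate 3 and Untreated replicate 3 left out the Fcer1g interaction was -0.042, and the Fcgr3 interaction ran from -0.0013 to 0.26 with each mouse left out. The cause was not tested. In LPS against Untreated, the log2 ratio to Fcgr2b differed by 0.65 to 0.75 for Fcer1g and 0.55 to 0.68 for Fcgr1 over 15 alternatives, with an exact permutation p of at most 0.0121, unadjusted. No paired analysis was possible because replicate numbers pair no mice.

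By adjusted p alone, 400 and 431 genes of the panel passed in LPS against Untreated and Dox+LPS against Dox, beside 175 and 204. In Dox+LPS against LPS, 2 genes passed with DESeq2, 1 with 1 and 1 with 2 RUVg factors, and 1 in females only, beside 0. Housekeeping scaling moved the panel median by 0.18 in Dox+LPS against Dox, and positive control scaling by 0.12 in LPS against Untreated. Counts near 50, as for Fcgr3 in saline-injected mice, limit the precision there.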
